A study of Danio rerio with 6 samples.

Results

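The mitophagy and autophagy genes of zebrafish larvae were compared between MZ *tafazzin* mutants and wild-type larvae. The members were the rows of the deposited expression table whose symbol begins with *atg* and a digit or is 1 of 38 listed symbols. They came to 55 of 27335 rows. Of these, 24 encode mitophagy proteins, and 31 encode core autophagy proteins or regulators of autophagy, together called core autophagy genes here. The 55 rows carry 54 symbols, because *tp53inp2* stands for a pair of rows at different loci. Of the listed symbols, *prkn* is not used in the table, and its older name *park2* (Parkin) is.

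RNA came from whole larvae at 5 days post-fertilization (dpf), from 3 pools of 25 MZ *tafazzin* mutants and 3 pools of 25 wild-type larvae. The mutants are homozygous for the *taz* E3 allele (lri113), a CRISPR/Cas9-made deletion of 1 base pair in exon 3 that shifts the reading frame to an early stop. MZ stands for maternal zygotic. Their mothers were homozygous too, so neither the egg nor the embryo supplied a wild-type transcript. A single allele was profiled, and antibodies tested in the study did not detect the fish protein, so loss of the protein was not shown directly. The study did measure a raised ratio of monolysocardiolipin to cardiolipin, and raised 3-methylglutaconic acid, in MZ mutant larvae of this age. One account in the study has every pool from 1 clutch, and another has the genotypes bred by separate incrosses. Homozygous mutant mothers cannot bear wild-type larvae, so the parents and clutch differ along with the genotype. Each value mixes all larval tissues, so fewer cells of a type and less RNA per cell cannot be told apart.

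Autophagy encloses cytoplasm in a double membrane, the autophagosome, and delivers it to the lysosome. The Ulk1 kinase complex starts the process, the Beclin 1 complex makes the lipid signal, Atg9 vesicles and Atg2 supply membrane, and ubiquitin-like enzymes join Atg8 proteins (the LC3 and GABARAP subfamilies) to lipid. Mitophagy is the same process aimed at mitochondria. In mammals it runs through the kinase PINK1 and the ubiquitin ligase Parkin, whose ubiquitin chains are read by cargo receptors such as p62, or through receptors built into mitochondria, such as BNIP3 and FUNDC1, that bind Atg8 proteins directly. Cardiolipin, the mitochondrial lipid that Tafazzin remodels, is itself known to bind LC3 in mammalian cells. The comparison bears on whether transcripts of this machinery differ in *tafazzin* mutant larvae. From the same RNA-seq, tested with Cuffdiff, the study described mitophagy genes as significantly higher in the mutants, and it proposed a compensatory response. The test used here is another one and called far fewer genes, 199 of 21843, of which 152 were higher in the mutants. Most genes called in the study were lower. The calls need not match, and a gene that did not pass here may have been called there.

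Levels are in FPKM, the fragments counted for a gene divided by its exon length and by the fragments mapped. Differences are log2 fold changes of FPKM + 1, mutant over wild-type, tested with limma across the 21843 genes that averaged 0.5 FPKM or more over the pools. A gene passed where its Benjamini-Hochberg adjusted p was under 0.05. On this scale the change of low genes is understated. FPKM summed to 501725 to 522531 in the mutant pools and 512587 to 540974 in the wild-type pools, and the number of reads per library is unknown here. Pools are numbered 0 to 2 as the table's columns are. *tafazzin*, listed as *taz*, had 6.09, 4.58 and 3.84 FPKM in the mutant pools, against 12.3, 12.035 and 8.53 FPKM in the wild-type pools (log2 fold change -1.04, adjusted p = 0.0468). Across all genes, wild-type pool 2 was the closest to the mutants on the first principal component (mutants 19.9, 16.4 and 35.2, wild-type -29.0, -32.0 and -10.5, 36.1% of the variance). Markers of muscle, heart, liver, neuron, photoreceptor, epidermis, blood and myeloid cells were all detected. Summed epidermal markers were lower in the mutants (3434 to 4562 FPKM, against 5174 to 6863 FPKM in wild-type), with *krt4*, *krt5*, *krt91* and *cyt1* below wild-type in every pool, *krt17* level and *epcam* above it (log2 fold change 0.71, adjusted p = 0.0595). Of these 6 genes, *cyt1* passed (-0.96, adjusted p = 0.0361). Summed macrophage markers were higher (16.8 to 23.1 FPKM, against 12.5 to 14.1 FPKM). All 5 had positive log2 fold changes, but none passed (smallest adjusted p = 0.0943, for *mpeg1.1*). Pools did not overlap for *mpeg1.1* and *csf1ra*, and they overlapped for *mfap4*, *marco* and *cd74a*. The part of these shifts in the values below was not tested.

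One member passed. The *tp53inp2* row on chromosome 23, here *tp53inp2-2* after its deposited identifier, was higher in MZ *tafazzin* mutants, and none of the 24 mitophagy members passed in either direction. Among all genes tested 0.911% passed, 0.696% higher and 0.215% lower, so the 1 member of 55 was near the background. At an unadjusted p under 0.05 there were 6 members higher and 5 lower, 20% of the 55, beside 16.3% of all genes tested (9.88% higher and 6.4% lower). Mitophagy members made up 5 of the higher and 1 of the lower ones, 25% of the 24. Core autophagy members made up 1 of the higher and 4 of the lower ones, 16.1% of the 31. The mutant pools lay entirely above the wild-type pools for 5 members and entirely below them for 4, 16.4% of the 55, beside 22.3% of all genes (11.9% above and 10.5% below).

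The median log2 fold change was 0.00 over the mitophagy members and -0.02 over the core autophagy members, beside 0.00 over all genes tested. The median size of the change, regardless of sign, was 0.11 over the 55 members and 0.17 over all genes. The 95% interval of the difference stayed within 0.5 log2 of zero for 33 members (60%), beside 39.7% of all genes, and the members were also better expressed than most genes, with a median of 11.2 FPKM against 6.90 FPKM over all genes tested. All 55 members passed the filter on low values, and no member was listed at 0 in any pool. Their mean levels ran from 0.758 FPKM for *usp30* to 132 FPKM for *gabarapb*.

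**Figure D1:**
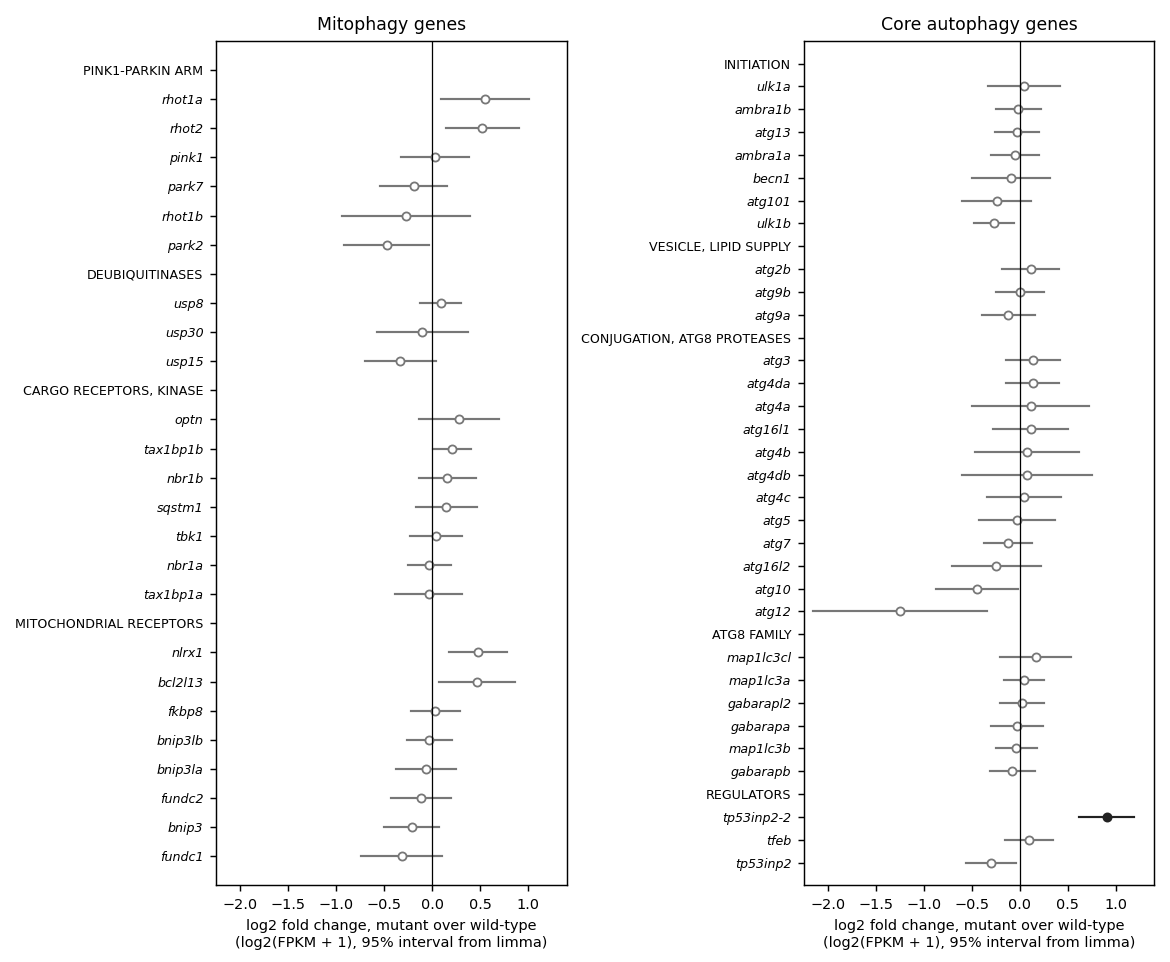
Log2 fold change of FPKM + 1, mutant over wild-type (horizontal axis), with its 95% limma interval, for the 24 mitophagy genes (left) and the 31 core autophagy genes (right), grouped by role. The filled point, *tp53inp2-2* at 0.90, is the 1 member that passed the adjusted threshold.

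None of the 6 rows of the PINK1-Parkin arm, the Miro genes included, passed. An unadjusted p under 0.05 was found for 3 (50%, beside 16.3% of all genes tested), 2 higher and 1 lower. The sensor kinase *pink1* had 10.4, 14.0 and 13.1 FPKM in the mutant pools, against 10.0, 12.6 and 14.1 FPKM in the wild-type pools. The ranges overlap almost entirely, and the log2 fold change was 0.03 (95% interval -0.32 to 0.38, adjusted p = 0.948). *park2*, its ubiquitin ligase partner, was listed at 3.16, 3.70 and 5.04 FPKM in the mutant pools, against 4.67, 7.17 and 5.86 FPKM in the wild-type pools. Mutant pool 2 lay above wild-type pool 0, so the genotypes overlap (log2 fold change -0.48, SE 0.20, adjusted p = 0.274). *park7*, for the redox-sensitive protein DJ-1, had 10.1, 11.2 and 11.6 FPKM in mutants, against 15.2, 13.4 and 9.96 FPKM in wild-type, with the lowest value in wild-type pool 2. Its log2 fold change was -0.19 (adjusted p = 0.574), and without that pool -0.35 (adjusted p = 0.176). With other pools left out it came as near zero as -0.07, and the adjusted p reached 0.889.

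The Miro GTPases tie mitochondria to motor proteins and are known Parkin substrates in mammals. *rhot2* had 7.63, 8.99 and 7.58 FPKM in the mutant pools, against 6.92, 4.54 and 4.72 FPKM in the wild-type pools (log2 fold change 0.52, SE 0.17, adjusted p = 0.177). Every mutant pool was above every wild-type pool, but the difference did not pass. *rhot1a* had 11.3, 14.0 and 14.1 FPKM in mutants, against 6.66, 7.74 and 12.2 FPKM in wild-type (log2 fold change 0.55, SE 0.20, adjusted p = 0.221). Wild-type pool 2 reached the mutant range here, and without that pool the log2 fold change was 0.78 and passed (adjusted p = 0.0455). Leaving out that pool also raised the calls over all genes tested to 318 higher and 104 lower, against 152 and 47 with all pools. With other pools left out, the adjusted p of *rhot1a* reached 0.473. The third paralog, *rhot1b*, was low in every pool, at 0.455 to 2.10 FPKM in mutants and 1.18 to 2.00 FPKM in wild-type. Summed over the 3 rows, Miro transcripts came to 21.0, 24.4 and 22.2 FPKM in the mutant pools, against 15.6, 14.2 and 18.1 FPKM in the wild-type pools, a sum formed after the values were seen.

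Among the deubiquitinases that act on Parkin or on mitochondrial ubiquitin in mammals, none passed and none had an unadjusted p under 0.05 from limma. *usp8* had 17.1, 18.3 and 18.5 FPKM in mutants, against 15.9, 17.4 and 17.3 FPKM in wild-type. *usp15*, on an unplaced scaffold, had 5.31, 6.70 and 6.04 FPKM in mutants, against 6.12, 9.07 and 8.48 FPKM in wild-type (log2 fold change -0.33, adjusted p = 0.359). Only 1 wild-type pool, pool 0, fell within the mutant range of *usp15*. *usp30*, the deubiquitinase of the outer mitochondrial membrane, was the lowest member, at 0.462 to 0.836 FPKM in mutants and 0.804 to 0.841 FPKM in wild-type.

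The cargo receptors bind ubiquitin on one side and Atg8 proteins on the other, and *tbk1* encodes the kinase that activates several of them. *sqstm1* (p62), the most abundant mitophagy member, had 45.05, 42.5 and 62.9 FPKM in the mutant pools, against 44.5, 47.2 and 41.9 FPKM in the wild-type pools. Mutant pool 2 alone stood apart, and without it the log2 fold change was -0.02 in place of 0.15 (adjusted p = 0.650 with all pools). *tax1bp1b* had 32.8, 32.2 and 36.2 FPKM in mutants, against 28.5, 30.1 and 28.8 FPKM in wild-type, with no overlap (log2 fold change 0.20, SE 0.09, adjusted p = 0.288). Its paralog *tax1bp1a* differed by -0.04, at 3.92 to 5.18 FPKM in mutants and 4.25 to 5.33 FPKM in wild-type, at a locus it shares with *jazf1a*. The other receptors *optn*, *nbr1b* and *nbr1a* and the kinase *tbk1* had log2 fold changes of 0.28, 0.16, -0.03 and 0.04, with overlapping pools and adjusted p from 0.484 to 0.916.

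The mitochondrial receptors split by sign, with 3 positive and 5 negative log2 fold changes. None of the 8 passed, and 2 had an unadjusted p under 0.05 (25%, beside 16.3% of all genes tested). *nlrx1* encodes a NOD-like receptor of mitochondria that has been described as a mitophagy receptor in mammalian cells. It had 8.31, 8.97 and 10.8 FPKM in the mutant pools, against 6.09, 6.74 and 6.37 FPKM in the wild-type pools. The genotypes did not overlap, and the difference was the nearest to passing among mitophagy members (log2 fold change 0.48, SE 0.13, adjusted p = 0.126 from limma). *bcl2l13*, a mammalian counterpart of the yeast receptor Atg32, had 16.2, 20.2 and 20.6 FPKM in mutants, against 10.8, 12.4 and 17.7 FPKM in wild-type. Wild-type pool 2 again lay within the mutant range (log2 fold change 0.47, SE 0.18, adjusted p = 0.237), and without that pool the value was 0.66 (adjusted p = 0.0621). With other pools left out it fell as low as 0.32, and the adjusted p reached 0.492.

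The hypoxia-linked receptors were at or below their wild-type levels without passing. *bnip3* had 21.6, 21.8 and 25.4 FPKM in the mutant pools, against 29.2, 29.2 and 22.3 FPKM in the wild-type pools (log2 fold change -0.21, SE 0.13, adjusted p = 0.446). Wild-type pool 2 lay within the mutant range of *bnip3*, and without that pool the value was -0.34 (adjusted p = 0.148). With other pools left out it came as near zero as -0.15, and the adjusted p reached 0.711. The relatives of *bnip3* that encode NIX were level, *bnip3la* at 27.3, 25.5 and 31.6 FPKM in mutants, against 36.1, 26.5 and 26.5 FPKM in wild-type. *bnip3lb* had 34.8, 34.6 and 41.7 FPKM in mutants, against 34.8, 39.8 and 38.6 FPKM in wild-type. For both NIX rows the genotypes overlap and the log2 fold changes were -0.07 and -0.03. *fundc1* had 10.7, 15.6 and 13.8 FPKM in mutants, against 12.7, 18.8 and 19.5 FPKM in wild-type (log2 fold change -0.32, SE 0.18, adjusted p = 0.436). The remaining outer-membrane members, *fundc2* and *fkbp8*, differed by -0.12 and 0.03 on the log2 scale.

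**Figure D2:**
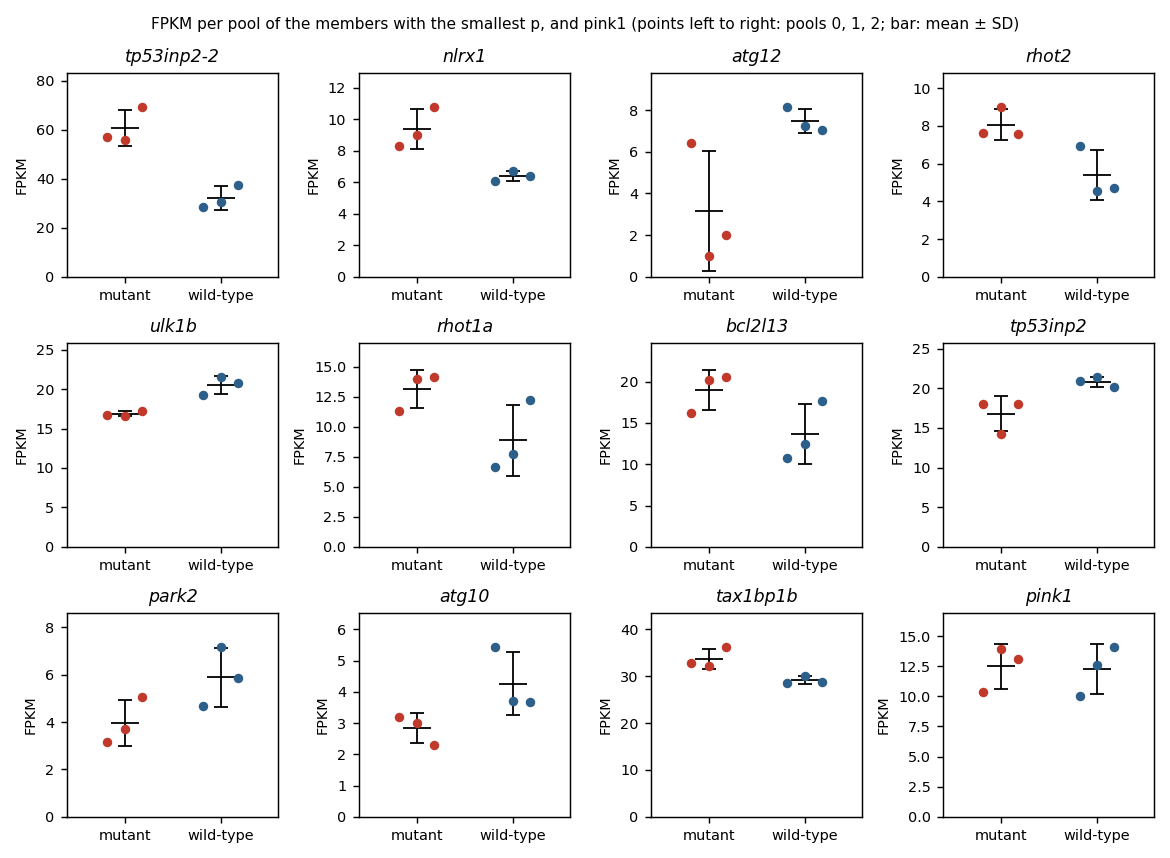
FPKM (vertical axis, from 0) in each mutant pool (left, red) and wild-type pool (right, blue) for the 11 members with an unadjusted p under 0.05, in order of p, and for *pink1*, with bars for the mean and SD of 3 pools. *tp53inp2-2* shows the widest separation for its spread, wild-type pool 2 reaches the mutant values of *rhot1a* and *bcl2l13*, and *atg12* is low in mutant pools 1 and 2 but not in pool 0.

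Among core autophagy genes, *tp53inp2-2* was higher in the mutants, and it is 1 of the 3 rows grouped as regulators. Tp53inp2 shuttles out of the nucleus in mammalian cells, binds Atg8 proteins and promotes autophagosome formation. The row at GRCz11 chromosome 23, 2537985 to 2548841, had 57.2, 55.6 and 69.1 FPKM in the mutant pools, against 28.3, 30.4 and 37.5 FPKM in the wild-type pools. The lowest mutant pool lay well above the highest wild-type pool. Means were 60.6 ± 7.4 FPKM in mutants and 32.1 ± 4.85 FPKM in wild-type (SD, n = 3 each), a log2 fold change of 0.90 (SE 0.13, 95% interval 0.61 to 1.19). The adjusted p from limma was 0.0222, and without the mean-variance trend in the fit it was 0.0771, so that no member passed. The exact two-sided permutation test of the pools gave p = 0.1, the smallest that 20 splits allow. With 1 pool left out, the log2 fold change stayed between 0.81 and 1.02 but the adjusted p was 0.0624 to 0.0978, except without wild-type pool 2, where it was 0.0147.

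The other *tp53inp2* row, on chromosome 11 (25260035 to 25266235), pointed the opposite way. It had 18.1, 14.2 and 18.1 FPKM in the mutant pools, against 20.9, 21.4 and 20.2 FPKM in the wild-type pools. All mutant pools were below all wild-type pools, but the difference did not pass (log2 fold change -0.30, SE 0.11, adjusted p = 0.237). A RefSeq gene table of the GRCz12tu assembly places a *tp53inp2b* on chromosome 23 and a *tp53inp2a*, with *tp53inp2* as a synonym, on chromosome 11. The ratio of the chromosome 23 row to the chromosome 11 row, formed after the values were seen, was 3.16, 3.92 and 3.83 in the mutant pools, against 1.35, 1.42 and 1.86 in the wild-type pools. The summed level of the pair was 69.8 to 87.2 FPKM in mutants and 49.1 to 57.7 FPKM in wild-type.

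*tp53inp2-2* begins 2.38 Mb from the start of *tafazzin* on the same chromosome (*tafazzin* at 4915965 to 4925666). Of the 160 genes tested within 5 Mb of *tafazzin*, 4 passed (2.5%, 1 higher and 3 lower, *tafazzin* and *tp53inp2-2* included), and 33.8% had pools that did not overlap. On the rest of chromosome 23, 10 of 654 genes passed (1.53%) and 25.5% did not overlap, and elsewhere 185 of 21029 genes passed (0.88%) and 22.1% did not overlap. The window was chosen after the values were seen, and the shares were not compared by a test. Haplotypes linked to the mutant allele and the loss of *tafazzin* cannot be told apart for this gene in this design. The other member on chromosome 23, *pink1*, lies 32.6 Mb from *tafazzin* and had the flat values given above.

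**Figure D3:**
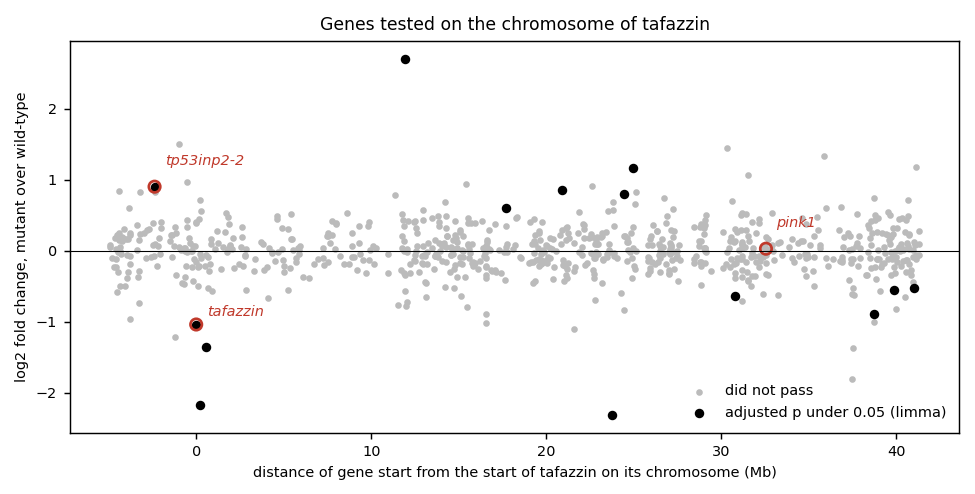
Log2 fold change of FPKM + 1, mutant over wild-type (vertical axis), of each gene tested on chromosome 23, against the distance in Mb of its start from that of *tafazzin* (horizontal axis). Black points passed the adjusted threshold, and red rings mark *tp53inp2-2* at -2.38 Mb, *tafazzin* at 0 Mb and *pink1* at 32.6 Mb.

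The third regulator, *tfeb*, encodes a transcription factor of lysosome and autophagy genes. Its levels were tight, at 9.33, 9.46 and 9.47 FPKM in the mutant pools, against 9.30, 8.76 and 8.26 FPKM in the wild-type pools. The pools did not overlap, by a margin far smaller than the wild-type spread, and the log2 fold change was 0.09 (95% interval -0.15 to 0.34, adjusted p = 0.716).

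Of the 7 initiation and nucleation genes, 6 had negative log2 fold changes and none passed. An unadjusted p under 0.05 was found for 1 (14.3%, beside 16.3% of all genes tested). *ulk1b*, for the kinase that starts autophagy, had 16.7, 16.6 and 17.2 FPKM in the mutant pools, against 19.2, 21.5 and 20.8 FPKM in the wild-type pools. The genotypes were separate and each was tight, yet the difference was small (log2 fold change -0.27, SE 0.09, adjusted p = 0.203). Its locus also carries LOC103909433, which was at 0 in 5 of the 6 pools. The paralog *ulk1a* was lower in level, at 4.31 to 6.74 FPKM in mutants and 4.90 to 5.23 FPKM in wild-type, with a difference of 0.04 on the log2 scale.

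*atg13*, for the scaffold of the Ulk1 complex, had 21.8, 26.8 and 26.2 FPKM in the mutant pools, against 24.7, 26.1 and 25.2 FPKM in the wild-type pools (log2 fold change -0.03). *becn1* (Beclin 1) had 10.2, 6.75 and 11.4 FPKM in mutants, against 9.11, 9.86 and 10.9 FPKM in wild-type (log2 fold change -0.09, 95% interval -0.50 to 0.32, adjusted p = 0.845). Its lowest value was in mutant pool 1, and without that pool the sign turned to 0.11. The Ulk1 complex subunit *atg101* differed by -0.24 and the Beclin 1 regulators *ambra1a* and *ambra1b* by -0.05 and -0.02, with overlapping pools.

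The membrane suppliers were level. *atg9b*, for a lipid scramblase carried on vesicles, had 19.4, 20.4 and 24.1 FPKM in the mutant pools, against 19.6, 22.8 and 21.4 FPKM in the wild-type pools (log2 fold change 0.00, 95% interval -0.25 to 0.25). *atg9a* had 14.2, 16.6 and 15.3 FPKM in mutants, against 16.5, 19.4 and 14.8 FPKM in wild-type (log2 fold change -0.12). The lipid transfer protein gene *atg2b* differed by 0.11, at 11.6 to 14.5 FPKM in mutants and 10.6 to 13.7 FPKM in wild-type.

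None of the 12 conjugation enzymes and Atg8 proteases passed, and log2 fold changes were positive for 7 and negative for 5. An unadjusted p under 0.05 was found for 2 (16.7%, beside 16.3% of all genes tested). The largest estimated difference of any member belonged to *atg12*, the ubiquitin-like protein that is joined to Atg5. It had 6.42, 1.02 and 2.02 FPKM in the mutant pools, against 8.14, 7.22 and 7.06 FPKM in the wild-type pools. Mutant pools 1 and 2 were far below wild-type, whereas mutant pool 0 was close to it (log2 fold change -1.25, SE 0.40, 95% interval -2.15 to -0.34, adjusted p = 0.173). Without mutant pool 0 the value was -1.78 and passed (adjusted p = 0.0447). It did not pass without mutant pool 1 (-0.84, adjusted p = 0.324) or without mutant pool 2 (-1.13, adjusted p = 0.415). *atg10*, for the enzyme that transfers Atg12 to Atg5, had 3.19, 3.02 and 2.30 FPKM in mutants, against 5.43, 3.69 and 3.67 FPKM in wild-type. The pools did not overlap (log2 fold change -0.45, SE 0.19, adjusted p = 0.283), and the gap rested on wild-type pool 0 in part, with a value of -0.30 without it.

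*atg5*, the partner of Atg12, had 9.65, 8.17 and 11.5 FPKM in the mutant pools, against 7.999, 12.3 and 9.86 FPKM in the wild-type pools (log2 fold change -0.03, 95% interval -0.42 to 0.37). *atg7*, for the enzyme that activates both Atg12 and Atg8 proteins, had 10.4, 10.7 and 10.4 FPKM in mutants, against 12.1, 12.3 and 10.4 FPKM in wild-type (log2 fold change -0.13, adjusted p = 0.607). *atg3*, for the enzyme that hands Atg8 proteins to lipid, had 9.38, 12.3 and 10.5 FPKM in mutants, against 10.2, 9.53 and 9.16 FPKM in wild-type (log2 fold change 0.14). In all 3 the genotypes overlap. The scaffold genes *atg16l1* and *atg16l2* differed by 0.11 and -0.25, the second at a locus shared with LOC110437943.

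The Atg4 proteases trim Atg8 proteins and release them from lipid. Their 5 rows, *atg4a*, *atg4b*, *atg4c*, *atg4da* and *atg4db*, had log2 fold changes of 0.11, 0.08, 0.04, 0.13 and 0.07, with overlapping pools in each. Precision was low for *atg4db* (SE 0.30), *atg4a* (SE 0.27) and *atg4b* (SE 0.24), and *atg4b* shares its locus with *dtymk*.

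The Atg8 family was the most abundant group, and the median size of its log2 fold changes, 0.038, was the smallest of the 9 role groups. None of its 6 rows passed or had an unadjusted p under 0.05. *gabarapb*, the highest member, had 118, 127 and 141 FPKM in the mutant pools, against 125, 154 and 129 FPKM in the wild-type pools (log2 fold change -0.08, 95% interval -0.32 to 0.16). *map1lc3b* had 84.2, 86.7 and 92.6 FPKM in mutants, against 95.3, 95.3 and 80.5 FPKM in wild-type (log2 fold change -0.04, 95% interval -0.25 to 0.17, adjusted p = 0.879). For both the genotypes overlap. The remaining rows, *gabarapa*, *gabarapl2*, *map1lc3a* and *map1lc3cl*, differed by -0.03, 0.02, 0.04 and 0.16. In the order of levels, *gabarapb* came first. *map1lc3b* followed, above *gabarapa* in each of the 6 pools, although their ranges over the pools overlap. *map1lc3a* and *gabarapl2* lay within each other's spread, and *map1lc3cl* was last at 5.94 to 9.63 FPKM over the 6 pools.

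Summed over the 6 Atg8 rows, the level was 373, 372 and 428 FPKM in the mutant pools, against 395, 417 and 386 FPKM in the wild-type pools. The GABARAP subfamily made up 62.2% to 64.3% of that sum in mutants and 63.0% to 64.3% in wild-type. The lowest and highest ends of the family's 95% intervals were -0.32 and 0.53, the second set by *map1lc3cl*. These are transcript levels, and joining of Atg8 proteins to lipid was not measured.

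**Figure D4:**
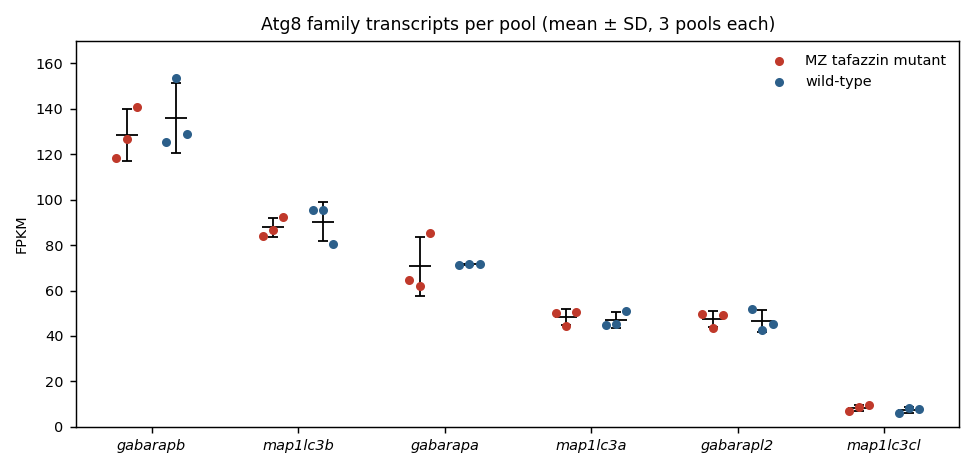
FPKM (vertical axis, from 0) of the 6 Atg8 family members in each mutant pool (red, left of each pair) and wild-type pool (blue, right of each pair), ordered by mean level, with bars for the mean and SD of 3 pools. The genotypes overlap for each gene, and levels run from about 132 FPKM for *gabarapb* to 7.87 FPKM for *map1lc3cl*.

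Part of the variation among pools did not follow genotype. Mutant pool 2 was the highest of the 6 pools for 21 of the 55 members (38.2%), beside 20.9% of all genes tested, and mutant pool 0 was highest for 1 member. Mutant pool 2 was highest for 10 of 24 mitophagy members and 11 of 31 core members, among them *sqstm1*, *optn*, *atg4a* and *atg4b*. The median deviation of mutant pool 2 from the mean of the pools was 0.06 log2 over the members, against -0.07 for mutant pool 0 and -0.04 for mutant pool 1. Wild-type pool 1 stood about as high, at 0.06, against 0.01 for wild-type pool 0 and -0.05 for wild-type pool 2. It was the highest pool for 15 members (27.3%, beside 20.2% of all genes tested). The sum of the neutrophil markers was highest in mutant pool 2, at 116 FPKM, against 69.8 and 75.7 FPKM in the other mutant pools and 56.0 to 82.8 FPKM in wild-type. Most of that gap came from *lect2l* (64.2 FPKM in mutant pool 2, against 22.0 and 23.6 FPKM in the other mutant pools). Of the 5 markers, *lect2l*, *mpx* and *mmp13a* were highest in mutant pool 2, whereas *lyz* was highest in mutant pool 1 and *npsn* in mutant pool 0. The part of these markers in the members' values was not tested. For the 47 members that averaged 5 FPKM or more, the median coefficient of variation was 11.3% among mutant pools and 9.05% among wild-type pools, beside 10.0% and 10.9% for all such genes.

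**Figure D5:**
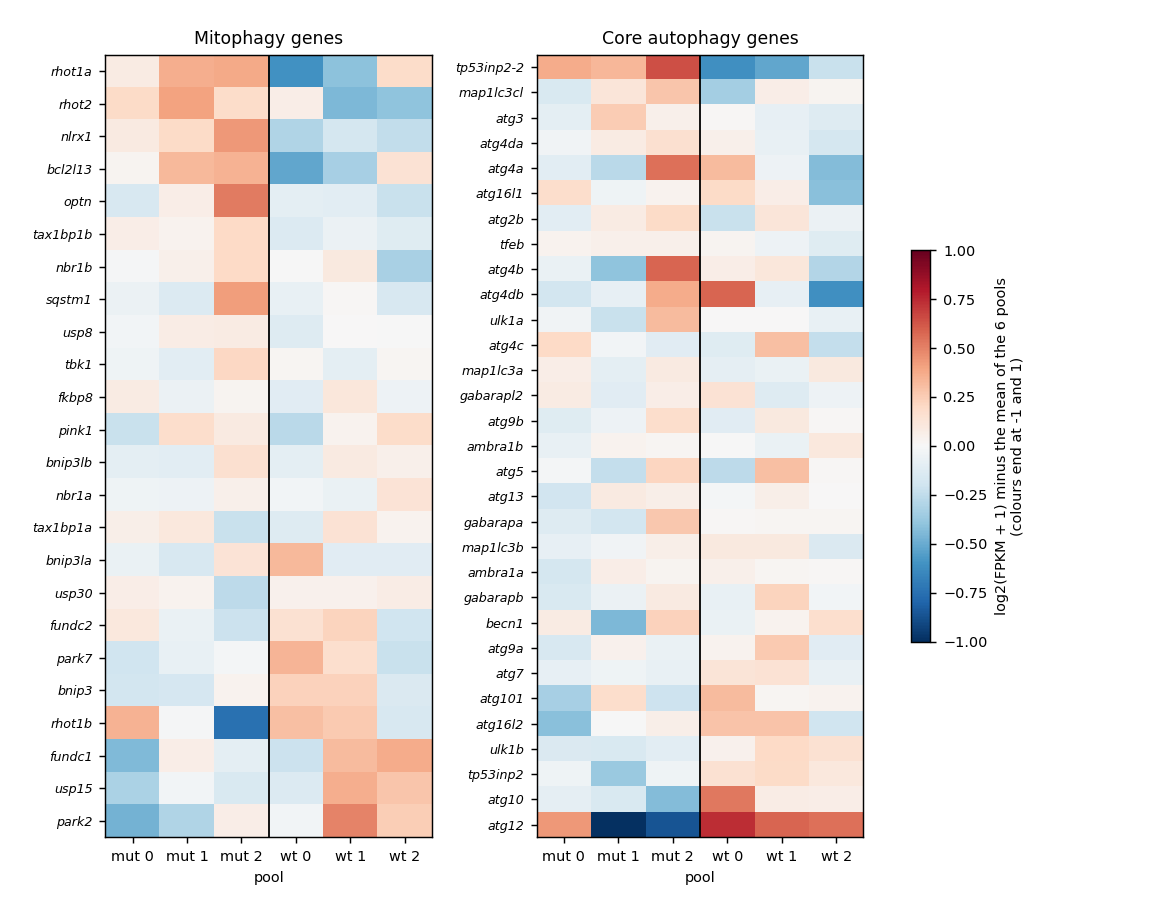
Deviation of log2(FPKM + 1) in each pool from the mean of the 6 pools (colour, red above and blue below, ending at -1 and 1), for mitophagy genes (left) and core autophagy genes (right), with mutant pools left of the line and genes ordered by log2 fold change. Contrast between genotypes in the top and bottom rows follows from that order, and pools overlap in some of these rows, such as *rhot1a* and *park2*. The mutant pools lie entirely above the wild-type pools for 3 mitophagy genes and entirely below them for 0. That is 12.5% of the 24, beside 22.3% of all genes tested (11.9% above and 10.5% below). Mutant pool 2 is the highest pool for 21 of 55 members, and wild-type pool 1 for 15.

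Other genes of these pathways, from lists kept apart from the members, were tested in the same fit. Of 33 further autophagy genes tested, 1 passed and was higher (3.03%, beside 0.911% of all genes tested). At an unadjusted p under 0.05 there were 4 higher and 0 lower, 12.1% of the 33. Among all genes tested the share was 16.3% (9.88% higher and 6.4% lower). Log2 fold changes were positive for 19 of the 33 and negative for 14. *tmem41b*, for a lipid scramblase of the endoplasmic reticulum that autophagosome formation needs in mammalian cells, had 11.2, 10.8 and 14.2 FPKM in the mutant pools, against 4.65, 5.41 and 6.67 FPKM in the wild-type pools. Its pools were well separated (log2 fold change 0.99, SE 0.16, adjusted p = 0.0320), and the call was kept without wild-type pool 2 (adjusted p = 0.0244) and lost without any other pool (0.0866 to 0.129). *vcp*, for an ATPase that extracts ubiquitinated proteins from membranes, had 75.6, 76.9 and 91.1 FPKM in mutants, against 39.9, 44.8 and 61.9 FPKM in wild-type. It did not pass with all pools (log2 fold change 0.74, SE 0.16, adjusted p = 0.0664). It passed without wild-type pool 2, the wild-type pool nearest to the mutants (0.92, adjusted p = 0.0177).

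None of 30 lysosome genes passed. Log2 fold changes were positive for 25 of them, beside 11013 of the 21843 genes tested. Their median was 0.10, beside 0.00 over all genes tested, and the direction of the list was not tested. At an unadjusted p under 0.05 there were 3 of them (10%, beside 16.3% of all genes tested), 2 higher and 1 lower. The smallest p belonged to *laptm4b*, for a lysosomal membrane protein, with 40.7, 42.0 and 48.9 FPKM in the mutant pools, against 27.4, 32.5 and 37.0 FPKM in the wild-type pools (log2 fold change 0.44, adjusted p = 0.138). Next was *cd63*, for a tetraspanin of late endosomes and lysosomes, with 124, 120 and 156 FPKM in mutants, against 113, 101 and 110 FPKM in wild-type (log2 fold change 0.29, adjusted p = 0.241). For both the genotypes did not overlap. The lower one, *ctsbb*, for a cathepsin B, had the largest difference of the list, at 7.39, 7.28 and 3.39 FPKM in the mutant pools, against 6.49, 11.8 and 17.9 FPKM in the wild-type pools. It was chosen after its values were seen, and its genotypes overlap (log2 fold change -0.86, adjusted p = 0.272).

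None of 23 further mitochondrial genes linked to mitophagy passed. Log2 fold changes were positive for 17 of them, with a median of 0.07, beside 0.00 over all genes tested. The direction of this list was not tested either. An unadjusted p under 0.05 was found for 1 (4.35%, beside 16.3% of all genes tested). *phb2b*, for an inner-membrane prohibitin described as a mitophagy receptor in mammals, had 14.1, 14.1 and 16.1 FPKM in the mutant pools, against 8.31, 8.20 and 15.5 FPKM in the wild-type pools. As for *rhot1a* and *bcl2l13*, wild-type pool 2 lay in the mutant range (log2 fold change 0.49, adjusted p = 0.306). *tomm20b*, for an import receptor of the outer membrane, had 57.7, 68.8 and 65.2 FPKM in mutants, against 80.8, 69.0 and 72.9 FPKM in wild-type (log2 fold change -0.21, adjusted p = 0.323). Its paralog *tomm20a* pointed the other way, with overlapping pools (log2 fold change 0.26, adjusted p = 0.408).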

How the data were processed

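Whole-larva RNA of 3 MZ *tafazzin* mutant pools and 3 wild-type pools was sequenced. The methods and the submitters' notes give Trim Galore 0.4.2 for trimming, STAR 2.5.3 for alignment to GRCz11, and Cufflinks 2.2.1 with Cuffdiff for quantification and testing. The authors deposited FPKM values for each gene and pool. Their comparison columns (mean FPKM, fold change, test statistic, p and q) and their separate list of genes called were not used.

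Column names show the genotype but not which labelled sample, so columns served as replicates of their genotype. The methods name 1 clutch and the results separate incrosses. Parents differ between the genotypes, and whether pools within a genotype are independent is unclear. The limma p-values set the genotype difference against the spread between these pools, adjusted toward that of genes at similar levels. Among genes averaging 5 FPKM or more, at most 0.0603% had the same value in any pair of pools.

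Because values were FPKM, limma 3.58.1 (R 4.3.3) stood in for Cuffdiff. Genes averaging 0.5 FPKM or more over the 6 pools were fitted on log2(FPKM + 1) with a mean-variance trend and adjusted over all genes tested. Depth is known only relatively. Judged by the smallest steps among low genes, the pools held about 0.837 to 1.28 times the fragments of mutant pool 0, an estimate resting on 9.83% to 23.1% of the low genes compared. Low members are the least precise.

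Members and lists were chosen with earlier results of these data known. Values in every pool are given for members with an unadjusted p under 0.05, the pair with the highest mean in each list, 10 genes named whatever their values, and, in the further lists, genes that passed or had the 2 smallest p. Each pool was left out in turn, with the genes tested kept, and other alternatives were quantile normalization, median scaling, no trend, the column number as a block, a pseudocount of 0.1, and a filter of 5 FPKM or none. Other software was Python 3.11.15, pandas 2.3.3 for tables and matplotlib 3.10.9 for figures.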

Additional observations from a re-analysis of the deposited data

How the results depend on the processing

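With 3 pools per genotype, calls moved with the settings more than estimates did. *tp53inp2-2* passed under each alternative that kept all pools except no trend (log2 fold change 0.90, adjusted p = 0.0771), which left 0 core autophagy members higher. *tafazzin* no longer passed with a pseudocount of 0.1 (-1.17, adjusted p = 0.0515), no filter (-1.04, 0.0791), quantile normalization (-1.06, 0.0540), median scaling (-1.05, 0.0510) or no trend (-1.04, 0.0996). Over all genes, 63 were higher and 24 lower without a filter, and 24 and 14 without the trend, against 152 and 47 as reported. Both left 0 genes of the further lists. The filter of 5 FPKM gave values for 47 of the 55 members. With the column number as a block, 273 genes were higher and 80 lower, 2 genes of the further lists passed, and core autophagy members higher stayed at 1. The samples share only a number. After the mean of its genotype was subtracted for each gene, same-numbered pools correlated at 0.017, 0.0039 and 0.054. On these deviations mutant pool 1 correlated best with wild-type pool 0.

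With 1 pool left out, 11 to 318 genes were higher and 4 to 104 lower, the 318 and 104 without wild-type pool 2. Core autophagy members higher ranged over 0 to 1, core members lower 0 to 1, mitophagy members higher 0 to 1, genes of the further lists 0 to 3, the core median -0.095 to 0.053 and *tafazzin* -1.19 to -0.91 (adjusted p 0.0298 to 0.184). The log2 fold change of *tp53inp2-2* ranged over 0.81 to 1.02, *rhot1a* 0.39 to 0.78 and *atg12* -1.78 to -0.84. Among members with values given in every pool, those near zero changed sign: *atg13* -0.082 to 0.060, *atg9b* -0.089 to 0.061, *bnip3lb* -0.11 to 0.017, *bnip3la* -0.15 to 0.078, *atg5* -0.17 to 0.11, *becn1* -0.23 to 0.11, *pink1* -0.098 to 0.15, *sqstm1* -0.023 to 0.25, *map1lc3b* -0.12 to 0.0024 and *gabarapb* -0.15 to 0.011. Some other members did too, such as *atg4a* -0.13 to 0.30, *atg4b* -0.20 to 0.29, *atg4c* -0.069 to 0.20 and *atg4db* -0.22 to 0.38. *atg4da* stayed positive. The cause was not tested.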
